A study of Mus musculus with 4 samples.

Results

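Gene expression was compared between morning and evening in peritoneal macrophages of mice treated with microcurrent stimulation (MCS), a weak electrical current passed through pads on the skin. The comparison used the MCS library taken at zeitgeber time (ZT) 2 and the MCS library taken at ZT14, which are 2 of the 4 RNA-seq libraries of the study. The other 2 were control libraries taken at the same times. ZT counts hours from lights on, so that ZT2 lies early in the resting phase of a mouse and ZT14 early in its active phase. Genes were included when the mean of the 2 MCS libraries was above 1 CPM (reads scaled to the depth of the library), which held for 12534 of the 15298 listed genes. The log2 ratio of ZT2 to ZT14 was taken after adding 0.1 CPM (the pseudocount) to each value, and a gene was called higher or lower at ZT2 when its ratio was above 1 or below -1.

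The macrophages of all libraries had been sorted as CD11b-positive, F4/80-positive and Ly6G-negative cells from the peritoneal cavity of female BALB/c mice 6 weeks old. Mice of the MCS groups were anesthetized with 1.5% isoflurane and received 300 µA at 400 Hz for 15 min through pads on the abdomen and back. Control mice, labelled as untreated, shared the anesthesia and the pads but received no current. The ZT2 libraries were taken immediately after the procedure and the ZT14 libraries 12 h after it. Time of day and time since the current and the anesthesia therefore cannot be told apart in the MCS libraries. The sources used here do not say how many mice each library stands for.

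The deposited CPM values could be turned back into whole reads, of which the MCS libraries held 8365590 at ZT2 and 9953243 at ZT14, and the control libraries 8658191 and 9217493. In the MCS libraries 1 read equaled 0.116 and 0.102 CPM. A count of 0 allows up to 3 reads, which is 0.348 CPM at ZT2 and 0.307 CPM at ZT14. There was 1 library per condition, so that no difference between the MCS libraries has a replicate check and none given here was tested. The 95% intervals (CI) given with ratios are exact binomial intervals on the recovered reads. Only counting error is covered by them, and reads copied by PCR are not independent molecules. CPM is not divided by transcript length, so a gene named for the highest mean CPM of a list need not have the most transcripts. A weakly expressed gene could pass the minimum through 1 library alone, and such a gene had to differ.

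The label of the cells was checked against their markers. All 10 genes of a general macrophage list were expressed at both times and none was called. *Csf1r*, the receptor for the growth factor on which macrophages depend, had 1028 CPM at ZT2 against 1233 CPM at ZT14. *Itgam*, which encodes CD11b, had 4759.7 and 4831 CPM, and the lysozyme gene *Lyz2* had 17344 and 18847 CPM. *Adgre1*, which encodes F4/80, had 1086 and 1899.8 CPM, a log2 ratio of -0.81 (95% CI -0.84 to -0.77), whereas its ratio in control was -0.04. *Gata6*, the transcription factor that sets the identity of large peritoneal macrophages, had 80.9 and 117 CPM. Genes typical of other cells were present as well, with markers of B cells summing to 1364 CPM at ZT2 and 1202 CPM at ZT14, and markers of mast cells summing to 2502 and 1083 CPM. In bulk RNA, fewer cells of a type and less RNA per cell cannot be told apart.

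Macrophages carry a circadian clock, in which the transcription factors BMAL1 (gene *Arntl*) and CLOCK drive the genes of their own repressors, the period and cryptochrome proteins. REV-ERB proteins close a further loop by repressing *Arntl*, and clock output factors such as DBP and TEF pass the rhythm on to other genes. In macrophages this clock is known to time the uptake of particles, the release of cytokines and the response to bacterial products.

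At ZT2, 496 genes (3.96% of those tested) were higher than at ZT14 in the MCS libraries and 235 (1.87%) were lower. In the control libraries, 302 of 12465 genes (2.42%) were higher at ZT2 and 148 (1.19%) were lower. The highest ratios among well expressed genes included the glucocorticoid-induced genes *Fkbp5* and *Zbtb16*, thrombospondin 1 (*Thbs1*) and genes of neutrophils and mast cells. The lowest included the clock output gene *Tef*, the gene *Cyp26a1* of retinoic acid breakdown, ribosomal protein genes and the structural RNA *Rmrp*. The 95% interval lay on the same side of 0 for 457 of the 496 higher and 220 of the 235 lower genes, and it lay entirely beyond 1 or -1 for 122 and 63 of them. The median log2 ratio of all genes was 0.01, with 6337 genes above 0 and 6197 below, and its 5th and 95th percentiles were -0.70 and 0.89. The median absolute ratio was 0.259 in MCS and 0.180 in control, where the typical counting error was alike, with a median interval half-width of 0.288 in MCS and 0.291 in control. Within 0.1 of the threshold lay 139 genes just inside and 211 just outside.

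Of the 731 called genes, most were weakly expressed, where reads are few. Among 3330 genes with a mean of 1 to 8 CPM, 398 (11.95%) were higher and 136 (4.08%) were lower at ZT2, and the median half-width of the interval was 0.795. Among 7304 genes of 8 to 100 CPM, 81 (1.11%) were higher and 82 (1.12%) were lower. Above 100 CPM, 17 of 1900 genes were called in each direction (0.895%), and the half-width was 0.102. The excess of higher over lower genes thus came from genes below 8 CPM. A ratio beyond 2 or -2 was found for 99 higher and 29 lower genes, and one beyond 3 or -3 for 21 and 15.

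**Figure D1:**
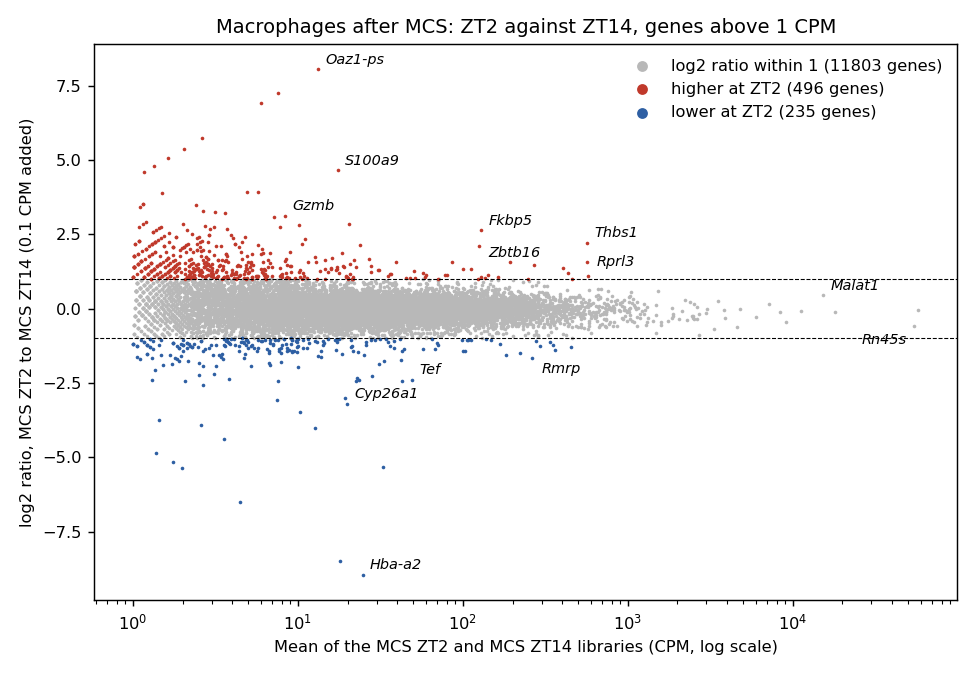
Log2 ratio of MCS ZT2 to MCS ZT14 (0.1 CPM added) against the mean of the 2 libraries in CPM on a log scale, for 12534 genes with 1 library per time. Points in red are the 496 genes above 1, points in blue the 235 genes below -1, dashed lines mark 1 and -1, and the spread of the points widens below 8 CPM.

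Among the activators of the clock, *Arntl* had 33.6 CPM at ZT2 against 19.02 CPM at ZT14 in MCS, a log2 ratio of 0.82 (95% CI 0.55 to 1.096), and 32.3 and 14.7 CPM in control. *Clock* had 98.3 and 95.3 CPM in MCS and did not pass the threshold. *Rora*, a nuclear receptor that activates *Arntl*, had 26.9 and 13.3 CPM and was called higher at ZT2, with 1.01 (95% CI 0.70 to 1.34). Thus 1 of 3 tested activators was called, against 3.96% of all genes tested called higher, with a median of 0.82 for the 3 genes. With a pseudocount of 1 CPM *Rora* had 0.97 and none was called. *Npas2*, also on the list, had a mean below 1 CPM.

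Of 9 tested repressors, 4 were called lower at ZT2 and none higher, against 1.87% and 3.96% of all genes tested. Of the 9, 7 lay below 0, and the median log2 ratio was -0.88, against 0.01 for all genes. *Per2* had 9.74 CPM at ZT2 against 46.7 CPM at ZT14, a log2 ratio of -2.25 (95% CI -2.62 to -1.92). *Per3* had 7.42 and 39.3 CPM, with -2.39 (95% CI -2.81 to -2.02), and this was the lowest ratio of the list. The cryptochrome genes were called lower too, *Cry1* with 10.8 and 22.7 CPM and *Cry2* with 7.54 and 20.2 CPM, at log2 ratios of -1.07 and -1.41. *Per1*, which hormones and other stimuli can induce rapidly, lay on the other side of 0, with 118 and 79.8 CPM and a ratio of 0.56 (95% CI 0.43 to 0.70).

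The remaining repressors did not pass the threshold in MCS. *Nr1d1* (REV-ERBα) had 4.52 and 8.38 CPM, a log2 ratio of -0.88 (95% CI -1.48 to -0.32), and *Nr1d2* (REV-ERBβ) had 28.7 and 47.6 CPM, with -0.73. *Bhlhe40*, which competes with CLOCK and BMAL1 for DNA, had 118 and 206 CPM, with -0.79. Its relative *Bhlhe41* had 90.8 and 81.4 CPM, with 0.16, whereas in control it had 77.7 and 132 CPM and -0.76.

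In control, 8 of 10 repressors were called lower at ZT2 and 1 higher, with a median of -1.73. The shares of all genes tested in control were 1.19% lower and 2.42% higher. *Per2* had a control ratio of -3.88, *Nr1d1* one of -2.58 and *Cry1* one of -1.71. The difference between the MCS and the control ratio was 1.63 (1.095 to 2.16) for *Per2*, 1.704 (0.96 to 2.44) for *Nr1d1* and -0.58 (-0.77 to -0.39) for *Per1*, with 95% counting intervals in parentheses. For *Arntl* and *Cry2* the interval of this difference included 0, at -0.31 (-0.71 to 0.09) and 0.48 (-0.11 to 1.07).

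The clock output factors of the PAR bZIP family bind D-box sequences, where NFIL3 acts as their competitor. *Tef* was called lower at ZT2, with 15.7 CPM at ZT2 against 82.7 CPM at ZT14 and a log2 ratio of -2.39 (95% CI -2.67 to -2.14). *Dbp* had 2.900 and 6.44 CPM and was called lower, with -1.12 (95% CI -1.88 to -0.46), a call that ended with a pseudocount of 1 CPM (-0.93). *Nfil3*, the opposing repressor, had 45.5 and 34.3 CPM and 0.41, and in control 69.2 and 18.2 CPM and 1.92. *Hlf*, the last gene of this list, had a mean below 1 CPM. None of 6 tested kinases and ligases that set the stability of the clock proteins was called, and their median was -0.01. For these lists too, the shares over all genes tested were 3.96% higher and 1.87% lower.

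**Figure D2:**
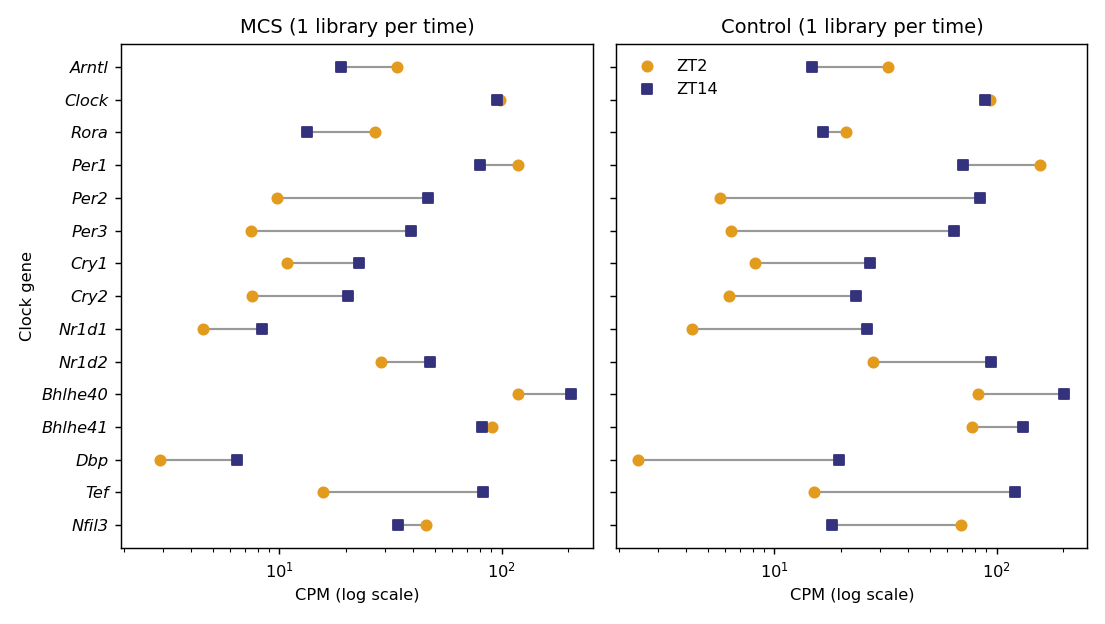
CPM on a log scale of 15 clock genes at ZT2 (circles) and ZT14 (squares), in MCS on the left and control on the right, with 1 library per time and arm. *Per2*, *Per3*, *Cry1*, *Cry2*, *Dbp* and *Tef* lie lower at ZT2 by more than 1 on the log2 scale in both arms, and *Nr1d1*, *Nr1d2* and *Bhlhe40* do so in control only.

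Because several clock genes were lower together at ZT2, their promoters were searched for the letters of motifs bound by clock factors. RefSeq promoters of GRCm38.p6, each 300 bases long, were matched to 9529 of the tested genes and searched on both strands. The E-box CACGTG, bound by CLOCK and BMAL1, occurred in 11.6% of them, in 7.44% of the promoters of genes higher at ZT2 (27 of 363) and in 12.7% of those of genes lower at ZT2 (21 of 165). It was found for 4 of 13 clock genes with a promoter, *Bhlhe41*, *Cry1*, *Per1* and *Tef*. Of these, *Cry1* and *Tef* were called lower, while *Bhlhe41* and *Per1* were not called and had more CPM at ZT2 than at ZT14. The D-box TTANGTAA occurred in 1.78% of all promoters, in 1.38% of those of higher and 2.42% of those of lower genes, and among the clock genes in that of *Per3*, at 2 positions. The cAMP response element TGACGTCA occurred in 3.56% of all promoters, in 3.03% and 2.42% of those of higher and lower genes, and in none of the 13 clock genes. A match is a description of the letters and does not show binding, and motifs outside the 300 bases were not searched.

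Shown are 3 promoters with a match whose genes were all called lower at ZT2 in MCS, with the matching letters in capitals. That of *Per3* lies at chr4:151044616-151044915 on the minus strand and holds the D-box at both positions. That of *Cry1* lies at chr10:85185005-85185304 on the minus strand and that of *Tef* at chr15:81802423-81802722 on the plus strand, each with 1 E-box. Not shown are the promoters of *Bhlhe41* and *Per1*, a second one of *Tef* at chr15:81811164-81811463 and one of *Fkbp5*, a gene called higher at ZT2, at chr17:28486100-28486399 on the minus strand, which each hold 1 E-box too.
Per3: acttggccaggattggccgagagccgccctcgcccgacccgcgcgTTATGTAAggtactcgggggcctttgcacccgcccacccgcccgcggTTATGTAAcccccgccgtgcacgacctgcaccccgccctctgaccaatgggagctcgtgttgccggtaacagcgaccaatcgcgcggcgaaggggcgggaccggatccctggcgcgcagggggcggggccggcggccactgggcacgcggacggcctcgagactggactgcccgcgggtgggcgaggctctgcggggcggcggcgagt
Cry1: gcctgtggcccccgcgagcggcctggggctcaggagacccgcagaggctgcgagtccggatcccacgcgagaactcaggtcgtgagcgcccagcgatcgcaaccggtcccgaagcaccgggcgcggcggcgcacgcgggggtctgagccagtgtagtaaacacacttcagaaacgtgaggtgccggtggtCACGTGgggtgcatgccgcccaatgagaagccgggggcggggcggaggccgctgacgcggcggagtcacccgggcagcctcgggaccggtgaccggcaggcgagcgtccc
Tef: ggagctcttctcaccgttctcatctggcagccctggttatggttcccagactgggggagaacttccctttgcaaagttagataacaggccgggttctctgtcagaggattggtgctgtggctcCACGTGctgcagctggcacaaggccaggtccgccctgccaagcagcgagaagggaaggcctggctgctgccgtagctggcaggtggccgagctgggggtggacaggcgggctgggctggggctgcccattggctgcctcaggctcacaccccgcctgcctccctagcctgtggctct

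Genes induced by glucocorticoids, the adrenal hormones whose level follows the time of day and rises under stress, were the next group. Of 16 tested genes, 5 were called higher at ZT2 and none lower, with a median of 0.43, against 0.01 for all genes. Over all genes tested, 3.96% were higher. Of the 5, *Mt2* and *Il1r2* were below 1 CPM at ZT14 and passed the minimum through ZT2 alone. Above a mean of 8 CPM, 3 of 13 genes of the list were called higher, with a median of 0.29. *Fkbp5*, which encodes a chaperone of the glucocorticoid receptor and lies at chr17:28399094-28517527 on the minus strand (GENCODE, GRCm38), had 223 CPM at ZT2 against 35.4 CPM at ZT14. Its log2 ratio of 2.65 (95% CI 2.49 to 2.82) was the highest of all genes above 100 CPM, and in control it had 173 and 46.7 CPM and a ratio of 1.89. *Zbtb16*, which encodes the transcription factor PLZF and lies at chr9:48654297-48836222 on the minus strand, had 205 and 47.5 CPM, a ratio of 2.103 (95% CI 1.96 to 2.26), and 88.3 and 18.5 CPM in control. The control ratio of *Zbtb16* was 2.25, and the difference between the arms was -0.15 (-0.43 to 0.13).

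*Cd163*, the scavenger receptor for hemoglobin bound to haptoglobin, had 59.3 CPM at ZT2 against 19.7 CPM at ZT14, with 1.58 (95% CI 1.35 to 1.83). *Mt2*, a metal-binding metallothionein, had 6.61 and 0.614 CPM, with 3.23 (95% CI 2.22 to 4.94), and the related *Mt1* had 82.4 and 42.2 CPM, with 0.96. *Il1r2*, the decoy receptor for interleukin 1, was at 2.09 and 0.102 CPM, the latter being 1 read, with 3.44 (95% CI 1.69 to 9.73), and 1.49 with a pseudocount of 1 CPM. Other genes of this list did not move in the same way. *Tsc22d3*, which encodes the glucocorticoid-induced protein GILZ, had 473 and 482 CPM, and *Sgk1* had 62.9 and 62.7 CPM, ratios of -0.03 and 0.00. *Dusp1*, a phosphatase that shuts off MAP kinases, lay lower at ZT2, with 124 and 224 CPM and -0.85, and in control it had 139 and 123 CPM. In control, 6 of 15 genes of the list were called higher and none lower, with a median of 0.77, where 2.42% of all genes tested were higher.

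*Thbs1* encodes a secreted matrix protein that binds CD47, CD36 and integrins. It lies at chr2:118111876-118127133 on the plus strand and had 938 CPM at ZT2 against 200.005 CPM at ZT14, the highest ratio above 100 CPM after *Fkbp5*. In control it had 1376 and 73.8 CPM, and the difference between the arms, -1.99 (-2.12 to -1.86), was below 0. *Adamts9*, which encodes a secreted metalloprotease, had 35.7 and 4.91 CPM in MCS, with 2.84 (95% CI 2.42 to 3.33), and 15.7 and 3.295 CPM in control. The receptors of thrombospondin 1 did not follow. *Cd47* had 137 and 131 CPM, *Cd36* had 374 and 386 CPM and the clearance receptor *Lrp1* had 3496 and 4315 CPM, with ratios between -0.30 and 0.07. Of 7 tested genes of this list 2 were called, both higher, where 3.96% of all genes tested were higher.

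Several other genes of 8 to 100 CPM were among the 10 highest at ZT2. *Stat4*, the transcription factor downstream of interleukin 12, had 38.98 CPM at ZT2 against 8.69 CPM at ZT14, with 2.15 (95% CI 1.82 to 2.53). *Il7r*, the receptor for interleukin 7, had 29.00 and 7.77 CPM, with 1.89 (95% CI 1.52 to 2.29), and *Creb3l1*, a membrane-bound transcription factor, had 17.4 and 3.78 CPM, with 2.17. *Gcsam*, a signaling adaptor of germinal center B cells, had 14.3 and 3.68 CPM, with 1.93. All 4 were above 1 in control as well, at 1.23, 1.76, 1.03 and 1.699. Above 100 CPM, *Hal*, which encodes the histidine-degrading enzyme histidase, had 398 and 144 CPM, with 1.47 (95% CI 1.38 to 1.56) in MCS and -0.06 in control. *Ptpn22*, a phosphatase that dampens immune receptor signals, had 196 and 88.8 CPM, with 1.14.

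The genes *Cyp26a1* and *Cyp26b1* encode enzymes that break down retinoic acid, the vitamin A derivative that sustains large peritoneal macrophages, and both were called lower at ZT2. *Cyp26a1*, at chr19:37697798-37701536 on the plus strand, had 3.83 CPM at ZT2 against 35.9 CPM at ZT14, with -3.196 (95% CI -3.79 to -2.71), and 3.46 and 20.9 CPM in control. *Cyp26b1* had 1.51 and 13.4 CPM, with -3.07 (95% CI -4.098 to -2.33), and -2.97 in control. Of the 8 tested genes of the retinoic acid list, which did not hold *Cyp26a1*, *Cyp26b1* alone was called, where 1.87% of all genes tested were lower. The receptors *Rara*, *Rarb* and *Rarg* had ratios of 0.14, 0.05 and -0.43, and *Aldh1a2*, which makes retinoic acid, had 25.4 and 19.5 CPM and 0.38.

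Other genes among the 10 lowest above 100 CPM had known roles in macrophages and leukocytes. *Abi3*, a partner of the WAVE complex that drives actin branching, had 118 CPM at ZT2 against 329 CPM at ZT14, with -1.48 (95% CI -1.58 to -1.38), and its control ratio was -1.44. *Adap1* had 54.1 and 146 CPM, with -1.43 in MCS and -0.73 in control. *Slpi*, a secreted inhibitor of neutrophil proteases, had 263 and 645 CPM, with -1.297 (95% CI -1.37 to -1.23), whereas its control ratio was 0.18.

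Genes for the proteins of the cytosolic ribosome formed a large list. Of 78 tested ribosomal protein genes, 7 were called lower (8.97%, against 1.87% of all genes tested) and none higher. Of these 78 genes, 62 lay below 0, and the median was -0.34. The lowest of the 7, *Rpl26*, had a ratio of -0.10 when summed with its near-identical *Gm15772*. The sum of the list was 26807 CPM at ZT2 and 34575 CPM at ZT14, against 29160 and 29380 CPM in control, where the median was -0.01 and none was called. *Rpl39* had 91.6 CPM at ZT2 against 273 CPM at ZT14, with -1.57 (95% CI -1.69 to -1.46), and *Rplp1* had 202 and 523 CPM, with -1.37 (95% CI -1.45 to -1.29). *Rps27a*, whose product is a fusion of ubiquitin with a ribosomal protein, had 172 and 413 CPM, and *Rps19* had 211 and 489.9 CPM. Not all members moved in 1 direction, since *Rps26*, *Rpl38* and *Rps24* had ratios of 0.38, 0.38 and 0.32.

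Genes in the nucleus for the respiratory chain and ATP synthase showed a similar count. Of 80 tested genes, 7 were called lower (8.75%, against 1.87% of all genes tested) and none higher. Of these 80 genes, 66 lay below 0, and the median was -0.32, against 0.12 in control. The 7 genes were *Atp5e*, *Atp5g3*, *Cox7a2*, *Ndufa2*, *Ndufaf6*, *Ndufb6* and *Ndufs3*, and a pseudocount of 1 CPM ended the call of *Ndufaf6* (-0.76). *Atp5e*, a small subunit of ATP synthase, had 19.7 CPM at ZT2 against 64.9 CPM at ZT14, with -1.71 (95% CI -1.97 to -1.47). *Atp5g3*, a subunit of its rotor ring, had 23.1 and 62.3 CPM, with -1.43 (95% CI -1.67 to -1.198). The genes of the list summed to 2975 and 3835 CPM in MCS, and to 3205 and 3027 CPM in control. No gene of the mitochondrial genome was listed.

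Many of these genes have short transcripts, and the ratio varied with transcript length over all genes. A length from GENCODE was found for 12441 tested genes (99.3%). The median log2 ratio was -0.17 for 87 genes of up to 500 bases and -0.19 for 589 genes of 500 to 1000 bases. It was -0.12 from 1000 to 2000 bases, -0.02 from 2000 to 4000, 0.08 from 4000 to 8000 and 0.17 for 650 genes above 8000 bases. In control the order ran the other way, from 0.19 in the shortest to -0.05 in the longest class. In MCS, 17.2% of the genes of up to 500 bases were called lower. The share was 6.62% from 500 to 1000 bases and 0.462% above 8000 bases. Genes called lower had a median length of 1955 bases, genes called higher one of 3215 bases, and all tested genes one of 3107 bases. Across 9160 genes of at least 8 CPM, which are not independent replicates, Spearman's rho between length and log2 ratio was 0.272 in MCS and -0.116 in control. The part of transcript length in the ribosomal and respiratory results was not tested.

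**Figure D3:**
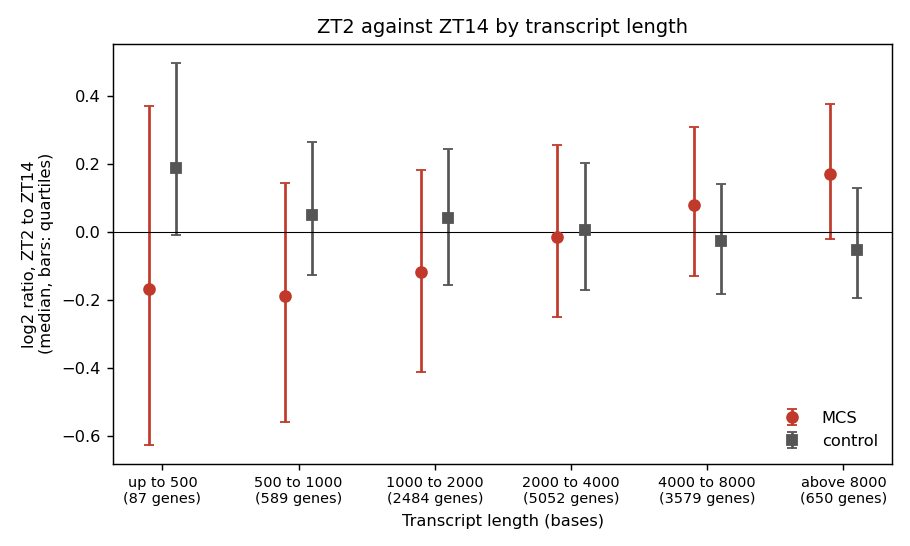
Median log2 ratio of ZT2 to ZT14 by transcript length in bases, in MCS (circles) and control (squares), with bars from the lower to the upper quartile of the genes in each class. From the shortest to the longest class, the median goes from -0.17 to 0.17 in MCS, with its lowest value of -0.19 at 500 to 1000 bases, and from 0.19 to -0.05 in control.

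Structural RNAs among the named genes were read next, together with the genes of the largest CPM differences. *Rmrp*, the RNA of the RNase that processes ribosomal RNA, had 126 CPM at ZT2 against 400.3 CPM at ZT14, with -1.66 (95% CI -1.76 to -1.57), and 175 and 184 CPM in control. *Rprl3*, an RNA related to that of RNase P, went the other way, with 847 and 287 CPM and 1.56 (95% CI 1.496 to 1.62), and 475 and 723 CPM in control. The ribosomal RNA precursor *Rn45s* had the largest difference in CPM of all genes, with 43379.8 CPM at ZT2 against 65104 CPM at ZT14, a log2 ratio of -0.59. The libraries had been depleted of ribosomal RNA, and how far this step removed it in each library was not tested. *Malat1*, a nuclear RNA that codes for no protein, had 17695 and 12928 CPM and the largest difference toward ZT2, and the kinase gene *Wnk1* had 1837 and 1200.3 CPM. The remaining genes with the largest CPM differences were *Apoe*, *Thbs1* and *Mrgpra6* toward ZT2 and *C4b*, *Fn1*, *Alox15* and *H2-D1* toward ZT14, and of all 10 only *Thbs1* passed the threshold.

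Peritoneal macrophages are of a large resident and a small monocyte-derived type, and a list for each was read. Of 23 genes typical of large peritoneal macrophages none was called, 17 were below 0 and the median was -0.44, against 0.04 in control. *Alox15*, which encodes a lipoxygenase of resident cells, had 3607 CPM at ZT2 against 5532 CPM at ZT14, with -0.62, and 4015 and 3712 CPM in control. *Garnl3* had 83.99 and 157 CPM, with -0.90, and *Cd5l*, a secreted protein of tissue macrophages, had 286 and 452 CPM. *Timd4*, a receptor for phosphatidylserine on resident cells, had 415 and 412 CPM, and *Prg4* had 3043 and 3028 CPM.

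Of 13 genes typical of small peritoneal and monocyte-derived macrophages, 3 were called higher at ZT2 and none lower, against 3.96% and 1.87% of all genes tested. Of the 13, 10 lay above 0, and the median was 0.67, against 0.17 in control. *Fn1*, which encodes fibronectin, is in both lists and makes up most of their sums, and the sum of this list was 57784 CPM at ZT2 against 59671 CPM at ZT14. *Ly6c2*, a surface protein of inflammatory monocytes, had 4.52 and 0.307 CPM, the latter being 3 reads, with 3.51 (95% CI 2.23 to 6.22), and 2.08 with a pseudocount of 1 CPM. Being below 1 CPM at ZT14, it passed the minimum through ZT2 alone. Above a mean of 8 CPM, 2 of 12 genes of the list were called higher, with a median of 0.57. *Itgax*, which encodes CD11c, had 22.2 and 7.06 CPM, with 1.64 (95% CI 1.25 to 2.07), and *Lyve1*, a hyaluronan receptor, had 26.6 and 12.5 CPM, with 1.08 (95% CI 0.77 to 1.42). *Retnla*, a gene induced by interleukin 4, had 408 and 239 CPM, and the chemokine receptor gene *Ccr2* had 234 and 168 CPM, ratios of 0.78 and 0.48.

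No gene of antigen presentation by MHC molecules was called in either class. MHC class I genes, which present peptides from inside the cell, had a median of -0.49 over 12 genes, 9 of them below 0, against 0.11 in control. Their sum was 4510 CPM at ZT2 and 6535 CPM at ZT14, led by *H2-D1* with 1909 and 3507 CPM and a ratio of -0.88 (95% CI -0.90 to -0.85). The immunoproteasome genes *Psmb8* and *Psmb9*, which shape these peptides, had -0.92 and -0.72, whereas *B2m*, the common light chain, had 0.14. MHC class II genes, which present peptides taken up from outside, had a median of 0.30 over 7 genes, 6 of them above 0. *H2-Ab1* had 738 and 548 CPM, with 0.43 (95% CI 0.38 to 0.48), and the invariant chain gene *Cd74* had 2438 and 1985 CPM.

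In the secretory pathway, none of 13 genes of the unfolded protein response was called, with a median of -0.36 against 0.07 in control. *Hspa5*, the main chaperone of the endoplasmic reticulum, had 586 CPM at ZT2 against 867 CPM at ZT14, with -0.56 (95% CI -0.62 to -0.51), and *Sdf2l1* had 70.9 and 111 CPM. Of 14 heat shock genes 12 lay below 0 and 2 were called lower, the inducible *Hspa1a* with 4.87 and 12.9 CPM and *Hspa1b* with 4.06 and 8.49 CPM (-0.91 with a pseudocount of 1 CPM, not called). Both were called lower in control too, at -1.77 and -1.99. The share of all genes tested that were lower was 1.87% in MCS and 1.19% in control. Among 8 genes of the integrated stress response the cystine transporter gene *Slc7a11* was called lower, with 6.15 and 15.4 CPM, and the median was -0.11, or -0.295 over the 6 genes above a mean of 8 CPM. It was also the 1 called of 7 genes that NRF2 controls, whose median was -0.19.

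The cytoskeleton lists differed, and the shares over all genes tested were 3.96% higher and 1.87% lower at ZT2. Of 11 tested tubulin genes 10 lay below 0, with a median of -0.61 in MCS and -0.45 in control. *Tuba1c* was called lower, with 56.03 CPM at ZT2 against 149.8 CPM at ZT14 and a ratio of -1.42 (95% CI -1.57 to -1.27). Its transcript is nearly identical to those of *Tuba1a* and *Tuba1b*, and the sum of the 3 genes was 389 and 651 CPM, a ratio of -0.74 (95% CI -0.80 to -0.68). None of 23 actin regulators was called, and their median was -0.08. Among 11 leukocyte integrins, which hold cells to matrix and to each other, *Itgax*, *Itgb5* and the collagen-binding *Itga2* were called higher, the latter with 12.9 and 3.99 CPM, and the median was -0.02. The call of *Itgb5* ended with a pseudocount of 1 CPM (0.75).

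Calls in the metabolic lists were read beside the shares over all genes tested, which were 3.96% higher and 1.87% lower at ZT2. Of 16 genes of glycolysis and the response to hypoxia, *Hk2*, which traps glucose in the cell as its phosphate, was lower at ZT2, with 38.2 CPM at ZT2 against 96.6 CPM at ZT14 and -1.34 (95% CI -1.53 to -1.16), and in control it had -0.84. The vasodilator peptide gene *Adm* was called higher, with 3.13 and 1.02 CPM. The glycolytic genes *Pfkl* and *Ldha* had -0.88 and -0.60, and the median of the list was -0.17. Among 9 genes of cholesterol export, *Abcg1*, which moves cholesterol onto lipoprotein particles, was called lower, with 96.98 and 199 CPM, -1.04 (95% CI -1.16 to -0.92), and -1.41 in control. Of 8 genes of fatty acid synthesis *Scd2*, a desaturase, was lower, with 43.4 and 87.1 CPM and -1.004 (95% CI -1.19 to -0.83), or -0.989 with a pseudocount of 1 CPM and thus not called, and none of 17 sterol synthesis genes was called. Their medians were -0.05, -0.30 and -0.12. Of 8 genes of iron and heme, the iron exporter gene *Slc40a1* was called higher, with 3.94 and 0.614 CPM and 2.503 (95% CI 1.42 to 4.23), and the median was -0.07. *Slc40a1* was below 1 CPM at ZT14 and passed the minimum through ZT2 alone. Above a mean of 8 CPM none of 7 genes of this list was called.

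In the inflammatory lists every called gene was higher at ZT2, while the list medians lay on both sides of 0. Of all genes tested, 3.96% were higher and 1.87% lower. Of 13 tested genes of proinflammatory cytokines and NF-κB feedback, the interleukin 1 gene *Il1b* was called higher at ZT2, with 7.08 CPM at ZT2 against 2.15 CPM at ZT14 and 1.68 (95% CI 0.98 to 2.51). The median of the list was -0.36, and *Tnf* had 1.97 and 2.66 CPM, *Il1a* 8.12 and 9.100 CPM and the inhibitor *Nfkbia* 158 and 202 CPM. Of 11 chemokine ligands, *Cxcl13*, which attracts B cells, was higher, with 222 and 106 CPM and 1.07 (95% CI 0.96 to 1.18). *Ccl5*, which attracts T cells, was higher as well, with 25.2 and 9.41 CPM and 1.41 (95% CI 1.06 to 1.79), and the median of the ligands was 0.13. None of 24 interferon-stimulated genes was called, with a median of 0.01, against 0.39 in control. Among 13 Toll-like receptors and their partners *Tlr5*, the flagellin receptor, was called higher, with 1.51 and 0.511 CPM and a ratio of 1.395 (95% CI -0.02 to 3.402), whose interval included 0. *Tlr5* was below 1 CPM at ZT14 and passed the minimum through ZT2 alone. Among 9 chemokine receptors *Cxcr2* was called higher and the median was 0.23, and among 7 regulatory cytokines and their feedback genes *Socs2* was, with 11.4 and 5.52 CPM. With a pseudocount of 1 CPM *Tlr5* (0.73) and *Socs2* (0.92) were not called.

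Genes for the uptake of particles were read in several lists, where 3.96% of all genes tested were higher at ZT2 and 1.87% lower. Of 12 genes that recognise apoptotic cells, the bridging protein gene *Gas6* was called higher, with 2.09 and 0.920 CPM and a ratio of 1.101 (95% CI -0.05 to 2.52), whose interval included 0, and 0.69 with a pseudocount of 1 CPM, where it was not called. *Gas6* was below 1 CPM at ZT14 and passed the minimum through ZT2 alone. *Mertk*, its receptor, had 183 and 117 CPM, with 0.64 (95% CI 0.53 to 0.75). The median of these genes was 0.01, that of 6 Fc receptor genes, none called, was -0.02, and that of 22 lysosomal genes, none called, was -0.09. Among 13 scavenger and lectin receptors *Cd163* and *Clec4n* were called higher, the latter with 4.29 and 1.02 CPM, and the median was 0.26. None of 7 genes of the SIRP alpha pathway, which restrains uptake, and none of 12 complement genes was called, with medians of 0.07 and -0.10.

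The current was applied shortly before the ZT2 library was taken, and genes that respond within minutes were therefore read as a group. Of 21 immediate early genes 2 were called higher at ZT2 in MCS and none lower, with a median of -0.14. The shares over all genes tested were 3.96% higher and 1.87% lower. Both called genes had a mean of 1 to 8 CPM, where 11.95% of all genes were called higher. *Egr3* had 6.496 CPM at ZT2 against 2.35 CPM at ZT14, with 1.43 (95% CI 0.74 to 2.23), and *Nr4a3* had 2.44 and 0.818 CPM, with 1.47 (95% CI 0.34 to 2.96). *Nr4a3* was below 1 CPM at ZT14 and passed the minimum through ZT2 alone. A pseudocount of 1 CPM ended the call of *Nr4a3* (0.92), and above a mean of 8 CPM none of 14 genes was called and their median was -0.39. *Fos* had 24.1 and 20.04 CPM, with 0.27 (95% CI -0.02 to 0.56), and *Egr1* had 12.2 and 13.4 CPM, with -0.14 (95% CI -0.52 to 0.24), so that both intervals included 0. In control the median of the 21 genes was -0.52, with none called higher and 2 lower, against 2.42% and 1.19% of all genes tested there. *Egr1* had 11.2 and 32.4 CPM in control. Of 11 CREB target genes *Nr4a3* alone was called (none with a pseudocount of 1 CPM), with a median of 0.56, and none of 17 ion channel genes was called, with a median of -0.04. None of 8 Kruppel-like factors and none of 3 cold-inducible RNA-binding proteins was called.

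In MCS, none of 22 genes of mitosis was called and their median was -0.09, or 0.22 over the 5 genes above a mean of 8 CPM, whereas in control 10 of 22 were called higher at ZT2, with a median of 0.93. *Top2a*, which untangles DNA, had 29.3 and 31.9 CPM in MCS and 29.9 and 12.9 CPM in control, and *Mki67* had 86.3 and 77.6 CPM and 83.4 and 48.00 CPM. None of 19 genes of DNA replication was called, with a median of -0.09. Among 12 genes that start or stop the cycle, cyclin D1 (*Ccnd1*) was lower at ZT2, with 64.7 CPM at ZT2 against 134 CPM at ZT14 and -1.05 (95% CI -1.19 to -0.91), and its control ratio was -0.09. Of 61 histone genes 3 were called higher and 6 lower in MCS (2 and 5 with a pseudocount of 1 CPM), with a median of -0.05, and 10 higher and none lower in control, with a median of 0.55. The shares over all genes tested were 3.96% higher and 1.87% lower in MCS, and 2.42% and 1.19% in control. Among the 6, *Hist2h2aa2* and *Hist2h3c1* were at 0 reads at ZT2 and passed the minimum through ZT14 alone. Histone genes resemble each other closely, and their reads cannot be assigned with certainty.

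Markers of other cell types differed in the same comparison, although the sort kept F4/80-positive cells and left out Ly6G-positive ones. Their counts stand beside shares of 3.96% higher and 1.87% lower over all genes tested. Mast cell markers, granule proteases and the receptor *Kit* among them, summed to 2502 CPM at ZT2 against 1083 CPM at ZT14 in MCS, a log2 ratio of 1.21 (95% CI 1.17 to 1.24), and to 1986 and 1282 CPM in control. Of 9 genes, 6 were called higher and none lower, all 9 were above 0, the median was 1.198 and none was at 0 reads. *Cma1*, the gene of the list with the highest mean CPM in the MCS libraries, had 609.5 and 304 CPM, a ratio of 1.005, or 0.9995 with the median of all genes set to 0, and *Cpa3* had 581 and 225 CPM, with 1.37 (95% CI 1.297 to 1.44). *Mcpt4* had 291 and 97.5 CPM, *Tpsb2* 607 and 265 CPM and *Hdc*, which makes histamine, 162 and 63.6 CPM. These genes made up 4 of the 10 highest ratios above 100 CPM, and their part in the other results was not tested.

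Neutrophil markers summed to 487 and 293 CPM in MCS and to 293 and 320 CPM in control. Of 11 tested genes 8 were called higher and none lower, with a median of 2.34, or 1.83 with a pseudocount of 1 CPM and 1.71 over the 5 genes above a mean of 8 CPM. Of the 8, *Ltf*, *Mmp8*, *Mpo* and *Ngp* were below 1 CPM at ZT14 and passed the minimum through ZT2 alone. *S100a9*, which encodes a calcium-binding protein of neutrophil cytoplasm, had 33.5 CPM at ZT2 against 1.23 CPM at ZT14, with 4.66 (95% CI 3.95 to 5.74), and 6.698 and 9.23 CPM in control. Its partner *S100a8* had 18.6 and 3.58 CPM, with 2.34 (95% CI 1.84 to 2.95). The granule genes *Mpo* and *Ngp* had 15.2 and 11.9 CPM at ZT2 and 0 reads at ZT14, at least 49.5-fold and 38.95-fold higher against 3 reads. *Camp* and *Elane* were also at 0 reads in MCS at ZT14, and *Ly6g* was not listed. *Csf3r*, with the highest mean CPM of the list, had 205 and 163 CPM, and the chemokine receptor gene *Cxcr2* had 24.7 and 7.46 CPM.

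Markers of natural killer cells summed to 81.2 and 34.2 CPM in MCS and 54.9 and 30.6 CPM in control. Of 8 tested genes 5 were called higher (4 with a pseudocount of 1 CPM) and none lower, with a median of 1.24. *Gzmb*, a protease of killer cell granules, had 15.1 CPM at ZT2 against 1.64 CPM at ZT14, with 3.13 (95% CI 2.45 to 4.05), whereas in control it had 2.77 and 2.42 CPM. *Eomes*, with the highest mean CPM of the list, had 12.8 and 4.499 CPM, and *Klre1* was at 0 reads at ZT14. T cell markers summed to 210 and 139.7 CPM in MCS and 177.7 and 177.8 CPM in control, 1 of 7 was called higher (*Cd4*, and not with a pseudocount of 1 CPM, 0.91), and *Cd2* had the highest mean CPM. B cell markers, led by *Cd79a* with 316 and 233 CPM, had none of 8 genes called and a median of 0.23. *Trac*, *Trbc1*, *Trbc2*, *Ighm* and *Ighd* were not listed.

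Dendritic cell markers summed to 109 and 63.2 CPM in MCS and 78.3 and 64.2 CPM in control, with 4 of 9 called higher (2 with a pseudocount of 1 CPM), and *Cd209a* had the highest mean CPM. *Itgax*, 1 of the 4, is also in the lists of integrins and small peritoneal macrophages. Mesothelial markers summed to 19.1 and 7.36 CPM in MCS and 14.1 and 6.15 CPM in control, and 5 of 6 were called higher, or 2 with a pseudocount of 1 CPM. Of the 5, *Krt8*, *Lrrn4* and *Msln* were below 1 CPM at ZT14 and passed the minimum through ZT2 alone. Fibroblast markers had 23.4 and 11.04 CPM in MCS and 19.6 and 4.61 CPM in control, with 3 of 5 called higher, or 1 with a pseudocount of 1 CPM, and *Pdgfra* at 0 reads in MCS at ZT14. Of 3 tested eosinophil markers *Ccr3* and *Siglecf* were called lower, with 12.2 and 33.8 CPM and 5.800 and 14.1 CPM. Their list summed to 67.1 and 81.9 CPM in MCS and 57.6 and 50.9 CPM in control, *Il5ra*, with the highest mean CPM, had a ratio of 0.53 (95% CI 0.32 to 0.74), and *Prg2*, *Epx*, *Ear1* and *Ear6* were not listed.

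Red blood cell genes summed to 36.7 and 112 CPM in MCS and 3.35 and 1.76 CPM in control. Of 4 tested genes 3 lay below 0 and 1 above. The 2 called lower were the hemoglobin genes *Hbb-b1*, with 12.6 and 37.4 CPM, and *Hba-a2*, with 0 reads at ZT2 and 49.5 CPM at ZT14. Platelet markers, led by *Pf4*, had 199.8 and 196.9 CPM, the single endothelial gene tested, *Pecam1*, had 64.7 and 47.6 CPM, and epithelial and liver genes, led by *Alb*, had 48.8 and 53.8 CPM, with none called. Over all 13 marker lists, 32 of 78 tested genes were called higher and 4 lower, against 3.96% and 1.87% of all genes tested. For all genes with a mean of 1 to 8 CPM the shares were 11.95% and 4.08%. Some of the 32 marker genes passed the minimum through ZT2 alone. The part of the cells of these lists in the other calls was not tested.

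**Figure D4:**
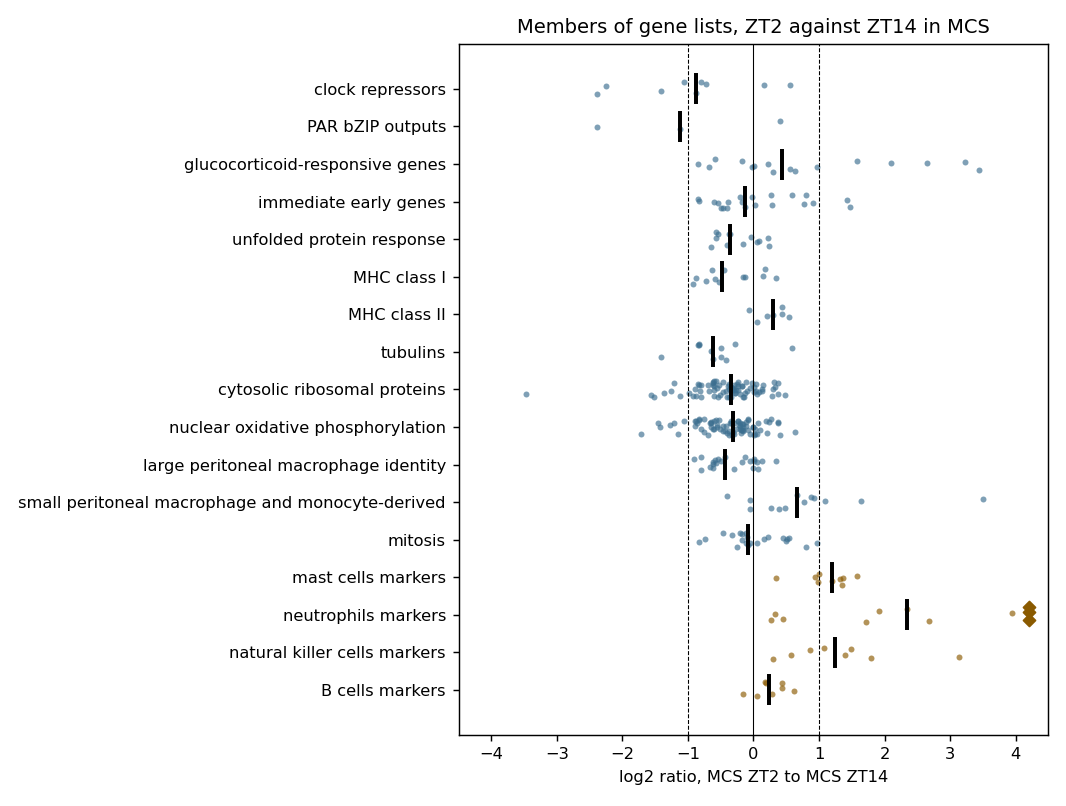
Log2 ratio of MCS ZT2 to MCS ZT14 for each tested member of 17 gene lists (points), with the median of each list as a black bar and dashed lines at 1 and -1. Diamonds at the right edge stand for neutrophil genes beyond the axis, blue points for lists of pathways and macrophage types and brown points for markers of other cells.

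Some of the most extreme ratios belonged to genes whose transcripts are nearly identical to another listed gene, which the counting can split arbitrarily. Among 49 genes named for extreme ratios or CPM differences, 46 had a transcript in GENCODE and 12 had such a partner, with at least 95% identity over at least 50% of the shorter transcript. *Oaz1-ps* had 26.6 CPM at ZT2 and 0 reads at ZT14, at least 86.6-fold higher, but its sum with *Oaz1* was 129.0 and 236 CPM, a ratio of -0.87 (95% CI -0.97 to -0.77). *Atp6v0c-ps2* had 0 reads at ZT2 and 35.9 CPM at ZT14, at least 103-fold lower, and summed with *Atp6v0c* the ratio was -0.22. *Gm6644* had 1.51 and 64.01 CPM, and summed with *Akr1b3* -0.61. The urea cycle gene *Ass1* had 4.18 and 34.5 CPM, and summed with *Gm5424* -0.07.

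The sums of the other genes with their partners ranged from 0.23 to -2.38. *Rpl26* had 1.62 and 19.02 CPM, and summed with *Gm15772* -0.10, while *Gm14434* had 17.7 and 2.45 CPM, and summed with 11 similar genes 0.23. *Rpl22l1*, a ribosomal protein paralog, had 6.96 and 38.2 CPM, and summed with *Gm15421* -2.38 (95% CI -2.80 to -2.01). *Hba-a2*, at least 142-fold lower against 3 reads, summed with *Hba-a1* to 22.04 and 69.1 CPM, a ratio of -1.64. *Rps19* summed with *Rps19-ps3* to -1.22, and *C4b* summed with *C4a* to -0.42. *Gm14430*, which had no GENCODE transcript to search with, had 1.39 and 23.9 CPM and -4.01 (95% CI -5.08 to -3.27). Of the 731 called genes, 52 higher and 34 lower ones were predicted genes or pseudogenes, which made up 6.199% of the genes tested.

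The genes called in MCS were then read in the control libraries, which share no library with MCS. Of 431 genes called higher and tested in both arms, 322 (74.7%) lay above 0 in control, 95 (22.04%) were called higher there and 16 (3.71%) lower. Of 214 called lower, 125 lay below 0 in control, 34 (15.9%) were called lower and 6 (2.80%) higher. Among all 12295 genes tested in both, 49.4% lay above 0 in control, 2.31% were called higher and 1.12% lower. At 8 CPM or more, 30 of 97 genes higher in MCS (30.9%) were called higher in control, and 17 of 94 lower genes (18.1%) were called lower, with 3 called the other way in each set. Of these, 80 of the 97 lay above 0 in control and 49 of the 94 below 0. Across the 12295 genes, the ratios of both arms had a Pearson r of 0.226 and a Spearman rho of 0.147, and genes are not independent replicates. The ratios lay beyond 1 in opposite directions for 22 genes.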

How the data were processed

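Per the submitters' processing notes, reads were trimmed (Trimmomatic 0.38), aligned to mm10 with Bowtie2 and assigned to genes by RSEM 1.3.0. The authors deposited CPM scaled by the effective library sizes of edgeR. RNA had been depleted of ribosomal RNA and the libraries kept strand. The annotation release and any expression filter applied to the deposited values are not given in the sources used here, whose gene tables carry RefSeq identifiers. For the genes of some of its figures the paper does state expression cuts. All values (100%) were whole reads within 0.05 read. The count test on these reads, edgeR's quasi-likelihood test over all 4 libraries on 12404 genes with at least 40 reads, called 295 genes at an adjusted p of 0.05. It served as an alternative, since the deposited values are not counts.

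Ratios, intervals and list medians were computed with Python 3.11.15, numpy 2.4.6, pandas 2.3.3 and scipy 1.17.1, figures with matplotlib 3.10.9, and the count test with R 4.3.3 and edgeR 4.0.16. A pseudocount of 0.1 CPM was added, which understates the ratios of weakly expressed genes. Intervals of a difference between the MCS and control ratios used a normal approximation to the read counts. Near-identical transcripts were found with blastn 2.17.0 (at least 95% identity and 150 aligned bases), and lengths and coordinates came from GENCODE for GRCm38. Scripts were tested on simulated data.

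Genes were named by a rule: the 10 highest and the 10 lowest ratios at a mean of 8 to 100 CPM and above 100 CPM, the 5 largest CPM differences in each direction, and members of 47 gene lists and 13 marker lists. The members and lists were chosen with earlier results of these data known. Alternatives were other pseudocounts, minimum expression, thresholds, scaling and gene sets. Control libraries were used only for comparison.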

Additional observations from a re-analysis of the deposited data

Results flagged for a closer look

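Named genes whose ratio of ZT2 to ZT14 lay beyond 1 in MCS and beyond 1 on the other side of 0 in control numbered 7, of 22 such genes among all tested. Each value rests on 1 library per condition, and the difference between the arms was not tested for any of them. *Cxcl13* had 222 and 106 CPM at ZT2 and ZT14 in MCS and 193 and 437 CPM in control, ratios of 1.07 and -1.18. *Il1b* had 7.08 and 2.15 CPM in MCS and 1.73 and 3.95 CPM in control, ratios of 1.68 and -1.15. *Ccr3*, the eotaxin receptor gene of eosinophils, had 12.2 and 33.8 CPM and 5.31 and 1.32 CPM, ratios of -1.47 and 1.93. *Pira1*, a paired immunoglobulin-like receptor gene with close relatives, had 13.5 and 72.6 CPM and 59.6 and 26.5 CPM, ratios of -2.42 and 1.17.

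The collagenase gene *Mmp8* had 5.104 and 0.716 CPM in MCS and 0.693 and 1.65 CPM in control, ratios of 2.67 and -1.14, and the control interval, -2.90 to 0.20, included 0. The histone gene *Hist1h4j* had 1.04 and 2.76 CPM and 2.43 and 0.879 CPM, ratios of -1.32 and 1.37, and the MCS ratio was -0.88 with a pseudocount of 1 CPM, inside the threshold. *Gm6644* had 1.51 and 64.01 CPM in MCS, a ratio of -5.32, and 40.9 CPM and 0 reads in control. Its sum with the near-identical *Akr1b3* had a ratio of -0.61 in MCS and 0.07 in control.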

How the results depend on the processing

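The counts of 496 genes higher and 235 lower at ZT2 moved by more than 1.5 times under some alternatives and kept more higher than lower genes in all but 1 of them. With a pseudocount of 1 CPM, 269 genes were higher and 140 lower. With a minimum mean of 8 CPM, which left out the 398 higher and 136 lower genes of 1 to 8 CPM, 98 were higher and 99 lower. Without a minimum, 1407 were higher and 646 lower. A log2 threshold of 2 gave 99 and 29 genes, and one of 0.5 gave 1614 and 1341. An edgeR quasi-likelihood test on the recovered reads, with additive terms for time and MCS over the 4 libraries, called 179 genes higher and 116 lower. It tests an effect of time common to both arms with 1 residual degree of freedom, and 1287 of 12404 genes had an unadjusted p under 0.05. Of the genes it called, 162 were among the 731, all in the same direction, which is 54.9% of its calls and 22.2% of the 731. Because the test used the same MCS reads, this overlap and the shared direction are not an independent check.

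The other alternatives stayed within 1.5 times. They gave 523 and 246 genes with a pseudocount of 0.01 CPM, 487 and 237 with the median ratio set to 0, 496 and 235 with TMM factors, 457 and 220 where the interval lay on the same side of 0, and 444 and 201 without predicted genes. The deposited CPM were already scaled by edgeR's effective library sizes. TMM factors therefore repeated the main scaling, for these counts and for the list medians below, and were no separate check. Chosen after seeing the data, leaving out genes with transcripts of up to 1000 bases or without a length gave 456 and 174, and leaving out markers of other cells 464 and 231. For 127 named genes, 371 of 381 alternative ratios lay within the counting interval, 10 moved beyond it with a pseudocount of 1 CPM, and none changed sign. Of 118 named calls, 21 ended with a pseudocount of 1 CPM, most of them below a mean of 8 CPM, and 1, of *Cma1*, with the median ratio set to 0. The medians of 47 gene lists stayed within their limits in 235 alternatives, and 2 lists, of clock kinases and mitosis, changed sign. A minimum mean of 8 CPM left 3 of 13 glucocorticoid-responsive and 3 of 5 neutrophil genes called higher, and no mesothelial or fibroblast marker tested. No paired analysis was possible because 1 library per condition leaves no replicate numbers to pair on (the additive fit above adjusts for the arm), and no replicate could be left out. Why the counts differed between alternatives was not tested beyond this.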
